A study of Arabidopsis thaliana with 8 samples.

Results

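The expansin genes of Arabidopsis thaliana were followed in guard cells of bam1 and Col-0 plants kept under mild heat or under control conditions. The family was taken as 35 loci, comprising 26 alpha-expansins (EXPA), 5 beta-expansins (EXPB), 3 expansin-like A genes (EXLA) and 1 expansin-like B gene (EXLB), and their array features were found through the transcript accession that the scanner output gives for each probe. Of these, 33 loci were represented by 43 probes, and 20 loci were detected, which means that both replicates of 1 group or more were flagged as well above background, and were tested, out of 18478 loci tested and 25410 loci represented on the array. EXPA19 (AT3G29365), annotated as a transcribed pseudogene, and EXPB5 (AT3G60570) had no probe matched. The data comprise 8 one-colour Agilent arrays in 4 groups of 2, namely bam1 heat, bam1 control, Col-0 heat and Col-0 control. All plants were 5 weeks old, each replicate pooled 5 to 8 plants, heat meant 32 °C by day and 28 °C by night for 3 d before harvest, and control plants stayed at 22 °C by day and 18 °C by night. Col-0 is the wild type, and bam1 is a single T-DNA insertion line of BETA-AMYLASE1, an enzyme that breaks down starch in guard cell chloroplasts. The material was a guard cell preparation obtained from whole leaves, which can hold RNA of other leaf cells.

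Expansins are secreted proteins that loosen plant cell walls without cutting wall polymers. They act best at acidic pH and are the classical mediators of acid growth, in which plasma membrane proton pumps acidify the wall and the wall then yields to turgor. In guard cells, whose walls are stretched and released with every opening and closing of the pore, expansins have been linked to the speed of stomatal movement, whereas no loosening activity has been established for the expansin-like EXLA and EXLB proteins.

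All levels below are quantile-normalized log2 intensities, so that a difference of 1 corresponds to 2-fold, and levels of different probes are not compared with each other. Depending on the array, 61.3% to 70.9% of all probes were detected. BAM1 transcripts (AT3G23920) lay between 6.81 and 7.68 on the 4 bam1 arrays and between 11.19 and 12.22 on the 4 Col-0 arrays. A locus was called when the Benjamini-Hochberg adjusted p of limma over all probes tested was below 0.05 and the change exceeded 2-fold. Replicates 1 and 2 of every group had been hybridized on slide 1 and slide 2.

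Many expansin transcripts were less abundant under heat in guard cells of both genotypes. In bam1, 8 of the 20 tested loci were called lower under heat and 1 higher, where 11.5% of all tested loci were called lower and 11.5% higher. In Col-0, 9 of 20 were called lower and 1 higher, against 10.6% lower and 11.7% higher over all loci. EXPA1, EXPA5, EXPA8, EXPA11, EXPA16, EXLA1 and EXLA2 were lower in both genotypes, which is 7 of the 8 loci called in bam1 and 7 of the 9 called in Col-0. How many of all loci were called lower in both genotypes was not counted, so this overlap has no background to be read against. EXPA3 was called in bam1 only, EXPA14 and EXPB1 in Col-0 only, and EXLB1 was the locus called higher in both. The median log2 change of the 20 loci was -0.69 in bam1, where that of all tested loci was 0.03, and -0.70 in Col-0, where that of all loci was 0.02. The change was negative for 70% of the expansin loci in bam1 (48.2% of all loci) and for 75% in Col-0 (48.9% of all loci). On both slides and in both genotypes 10 expansin loci were lower under heat and 3 were higher. These counts were not made over all loci, so they have no background to be read against. On all 8 arrays, 18 of the 20 loci stood well above background, and EXLA2 and EXLA3 did so on a part of the arrays. When any 1 array was left out, the Col-0 median ranged from -1.18 (without Col-0 heat replicate 1) to -0.52 (without Col-0 control replicate 1). The bam1 median ranged from -0.95 (without bam1 control replicate 2) to -0.55 (without bam1 heat replicate 1). With another background correction (normexp) the medians were -0.33 in bam1 and -0.42 in Col-0. Without bam1 heat replicate 2 the number of calls was 4 in bam1, and without Col-0 heat replicate 1 it was 6 in Col-0.

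**Figure D1:**
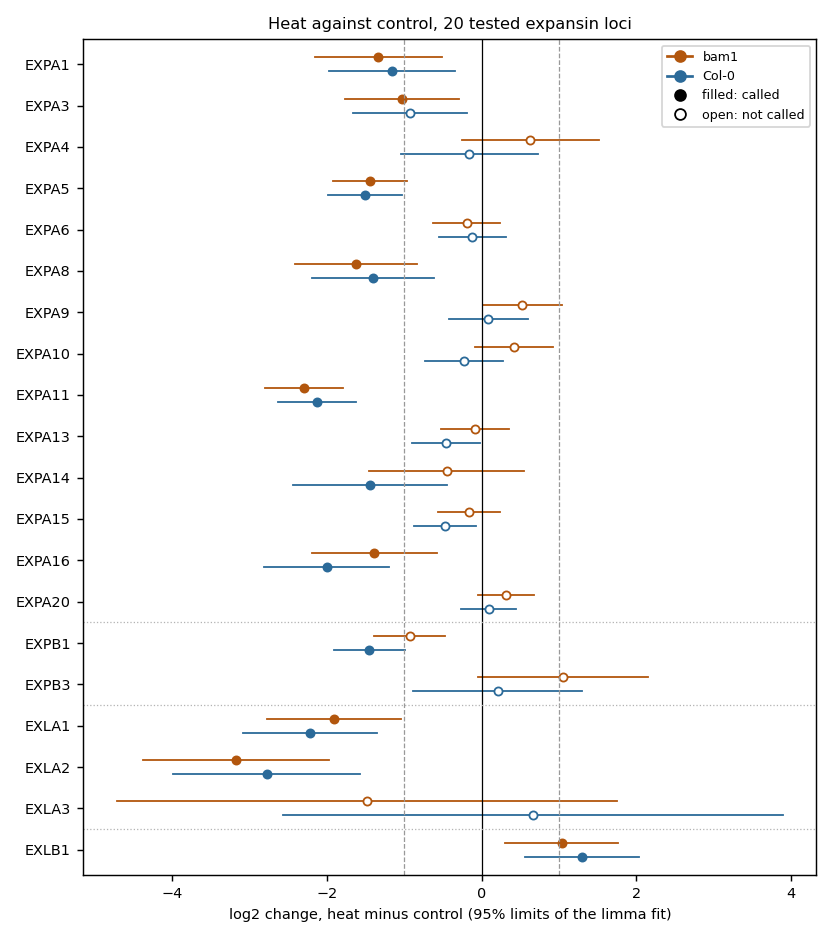
Log2 change (heat minus control, horizontal axis) of the 20 tested expansin loci in bam1 and Col-0, with 95% limits of the limma fit on 8 arrays. Filled points passed the call, dashed lines mark 2-fold, dotted lines separate EXPA, EXPB, EXLA and EXLB, and most filled points lie left of 0 while EXLB1 lies at 1.03 in bam1 and 1.3 in Col-0.

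Among the alpha-expansins, which carry the acid-induced wall loosening activity, 6 of 14 tested loci were called lower in each genotype and none was called higher. EXPA11 (AT1G20190) had the most negative fitted log2 change of the subfamily, with EXPA16 within the error of it in Col-0. Its level was 8.79 and 8.61 on the bam1 heat arrays and 10.76 and 11.23 on the bam1 control arrays. In Col-0 it was 8.63 and 8.67 under heat and 10.93 and 10.63 under control conditions. The 4 heat arrays therefore lay within a narrow band well below all 4 control arrays. The transcript was 4.91-fold lower under heat in bam1 (log2 change -2.30 ± 0.21, SE, limma adjusted p = 0.000705) and 4.38-fold lower in Col-0 (-2.13 ± 0.21, adjusted p = 0.000995).

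EXPA5 (AT3G29030), an expansin linked to brassinosteroid-dependent growth of Arabidopsis shoots, was at 9.79 and 9.84 in heated bam1 and at 11.01 and 11.51 in bam1 controls. The Col-0 arrays read 9.60 and 9.69 under heat and 11.05 and 11.26 under control conditions. Heat and control arrays did not overlap in either genotype. Heat minus control gave a log2 change of -1.44 ± 0.20 in bam1 (2.72-fold lower, adjusted p = 0.00289) and -1.51 ± 0.20 in Col-0 (2.84-fold lower, adjusted p = 0.0026). EXPA5 and EXPA11 kept their calls in both genotypes whichever single array was left out.

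EXPA16 (AT3G55500) read 7.28 and 7.64 in heated bam1 and 8.41 and 9.28 in bam1 controls, and 7.23 and 7.24 in heated Col-0 and 8.92 and 9.55 in Col-0 controls. Control arrays spread more than heat arrays, and slide 2 was the higher of the 2 slides in both control groups. This gave a log2 change of -1.39 ± 0.34 in bam1 (adjusted p = 0.02) and -2.00 ± 0.34 in Col-0 (adjusted p = 0.00579). The bam1 call was lost without bam1 heat replicate 1, bam1 heat replicate 2 or bam1 control replicate 2, where the log2 change lay between -1.56 and -0.96 and the adjusted p between 0.053 and 0.0983. With the mean of both probes neither call held (bam1 -0.93, adjusted p = 0.252, and Col-0 -1.78, adjusted p = 0.0531), and the methods' t-test did not call it in bam1.

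EXPA8 (AT2G40610) was at 10.10 and 10.04 in heated bam1, and at 11.71 and 11.69 in bam1 controls. In Col-0 the levels were 10.53 and 10.14 under heat and 12.25 and 11.24 under control conditions, where replicate 1 was the higher one on both occasions. Its log2 change was -1.63 ± 0.33 in bam1 (3.09-fold lower, adjusted p = 0.0105) and -1.41 ± 0.33 in Col-0 (2.65-fold lower, adjusted p = 0.0179). The bam1 call was lost without bam1 heat replicate 2 (-1.60, adjusted p = 0.0522). The Col-0 call was lost without Col-0 heat replicate 1, Col-0 heat replicate 2 or Col-0 control replicate 1, with log2 changes between -1.60 and -0.90, in a fit of the Col-0 arrays alone (adjusted p = 0.0566) and by the methods' t-test.

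EXPA1 (AT1G69530), an alpha-expansin studied in Arabidopsis guard cells for its part in stomatal opening, read 11.32 and 10.85 in heated bam1 against 12.28 and 12.55 in bam1 controls. In Col-0 it read 11.69 and 11.24 under heat and 13.07 and 12.18 under control conditions. Each heat array was below each control array of its genotype, but the spread within a group reached nearly the size of the change in the Col-0 controls. Its log2 change was -1.33 ± 0.34 in bam1 (2.52-fold lower, adjusted p = 0.0239) and -1.16 ± 0.34 in Col-0 (2.23-fold lower, adjusted p = 0.0396). Among fits that left out 1 array, the Col-0 call held only without Col-0 control replicate 2, and without any of the other 7 arrays the adjusted p lay between 0.0523 and 0.186 and the log2 change between -1.38 and -0.71. The bam1 call was lost without bam1 heat replicate 2, bam1 control replicate 1 or bam1 control replicate 2 (adjusted p between 0.0588 and 0.118, log2 change between -1.47 and -1.10). Without the filter on dim probes neither call held (adjusted p = 0.0508 in bam1 and 0.0784 in Col-0), and the Col-0 call was lost in a fit of the Col-0 arrays alone and by the methods' t-test.

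Of the alpha-expansins called in a single genotype, EXPA3 (AT2G37640) was at 7.52 and 7.28 in heated bam1 and at 8.45 and 8.42 in bam1 controls. The Col-0 arrays read 7.61 and 7.47 under heat and 8.95 and 7.99 under control conditions. All 4 heat arrays lay below all 4 control arrays. The change was near the 2-fold limit, at -1.03 ± 0.31 in bam1 (adjusted p = 0.0391) and -0.92 ± 0.31 in Col-0 (adjusted p = 0.0564). The bam1 call remained only without Col-0 control replicate 1 or Col-0 control replicate 2, and without any of the other 6 arrays the adjusted p was between 0.0663 and 0.157. Without Col-0 control replicate 2, EXPA3 was called in Col-0 as well (-1.40, adjusted p = 0.00816), and without Col-0 control replicate 1 its log2 change there was -0.45. The bam1 call was also lost with 75th-percentile scaling, the authors' table, no filter on dim probes, the mean of both probes, and normexp (-0.59, adjusted p = 0.105).

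EXPA14 (AT5G56320), an auxin-responsive expansin known from lateral root formation, was at 6.10 and 6.58 in heated bam1 and at 7.29 and 6.29 in bam1 controls, which overlap. In Col-0 it was at 5.29 and 5.44 under heat and at 6.37 and 7.25 under control conditions, which do not. Its log2 change was -0.45 ± 0.42 in bam1 (adjusted p = 0.435) and -1.44 ± 0.42 in Col-0 (adjusted p = 0.0366). The difference between the genotypes in this change was 0.99 with 95% limits of -0.42 and 2.40, so that a call in 1 genotype alone was not shown to be a difference. The Col-0 call was lost without Col-0 heat replicate 1, Col-0 heat replicate 2, Col-0 control replicate 2, bam1 heat replicate 1 or bam1 heat replicate 2, with adjusted p between 0.0522 and 0.154 and log2 changes between -1.52 and -1.01. It was also lost without the filter on dim probes (adjusted p = 0.0736), by the methods' t-test, and with normexp, where the log2 change was -0.47 (adjusted p = 0.162).

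EXPA6 (AT2G28950) was the locus among the strongest signals of the family that was not called. Its level was 12.88 and 12.78 in heated bam1 and 12.81 and 13.24 in bam1 controls, and 12.64 and 12.65 in heated Col-0 and 12.81 and 12.72 in Col-0 controls. The log2 change was -0.19 ± 0.18 in bam1, with 95% limits of -0.62 and 0.24, and -0.12 ± 0.18 in Col-0, with limits of -0.55 and 0.31, so that a 2-fold change in either direction lay outside the limits. The other alpha-expansins not called in either genotype were EXPA4, EXPA9, EXPA10, EXPA13, EXPA15 and EXPA20, with log2 changes between -0.16 and 0.63 in bam1 and between -0.47 and 0.09 in Col-0. EXPA10 (AT1G26770), known for its effect on Arabidopsis leaf size, had a log2 change of 0.42 in bam1 and -0.23 in Col-0, and its other probe gave 0.32 in bam1 and 0.18 in Col-0, so the probes differed in sign in Col-0.

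**Figure D2:**
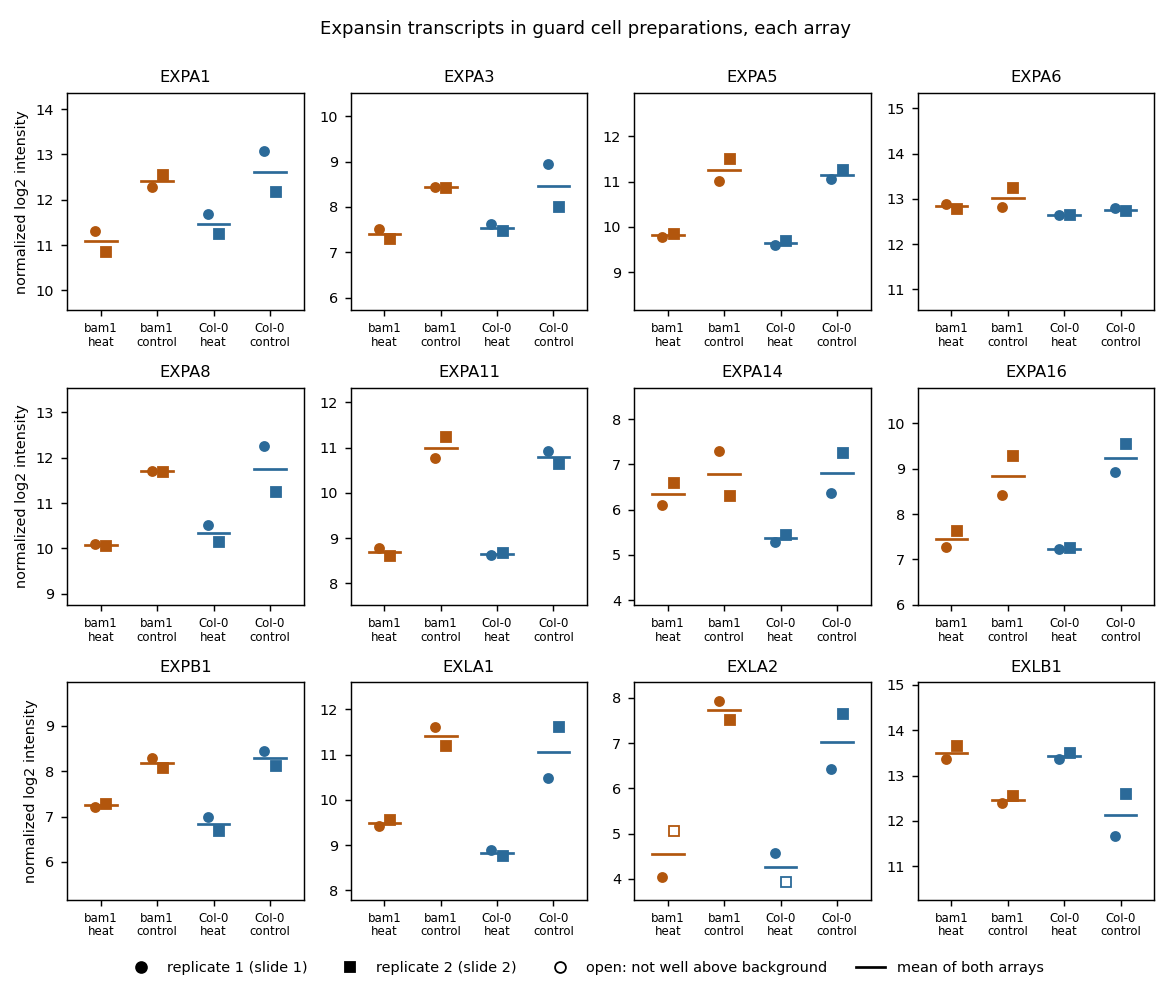
Normalized log2 intensity of the 12 expansin loci that were called in any comparison or had the 5 strongest signals, on each of the 8 arrays (vertical axis), with bars for the mean of a group and open symbols where the probe was not well above background. Heat arrays lie below control arrays of the same genotype for most loci and above them for EXLB1, while those of EXPA6 lie between 12.64 and 13.24 in every group.

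Beta-expansins are best known from grasses, where they loosen the arabinoxylan-rich walls. In Arabidopsis guard cells 2 of the 5 loci were detected. EXPB1 (AT2G20750) was at 7.22 and 7.29 in heated bam1 and at 8.28 and 8.08 in bam1 controls, and at 6.99 and 6.67 in heated Col-0 and at 8.44 and 8.12 in Col-0 controls. The heat arrays were below the control arrays throughout. This amounted to a log2 change of -0.93 ± 0.19 in bam1, which passed the adjusted p (0.0112) but not the 2-fold limit, and -1.45 ± 0.19 in Col-0 (2.74-fold lower, adjusted p = 0.00248). Without bam1 control replicate 2, EXPB1 passed both limits in bam1 (-1.03, adjusted p = 0.0309). With normexp the log2 change was -0.45 in bam1 and -0.84 in Col-0, where the call was lost. EXPB3 (AT4G28250) was at 9.59 and 9.64 in heated bam1 and at 9.03 and 8.09 in bam1 controls, and at 9.71 and 9.02 in heated Col-0 and at 9.69 and 8.63 in Col-0 controls. Slide 1 gave the higher value in both control groups, and the groups overlapped in Col-0 but not in bam1. The log2 change of EXPB3 was 1.05 ± 0.46 in bam1 (adjusted p = 0.118) and 0.21 ± 0.46 in Col-0 (adjusted p = 0.755). With the replicate number as a block, which takes up the difference between the slides, EXPB3 was called higher in bam1 and the number of calls there was 10, while it stayed at 10 in Col-0.

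Of the 3 expansin-like A genes, EXLA1 and EXLA2 were called lower in both genotypes and EXLA3 was not. EXLA1 (AT3G45970) was at 9.42 and 9.56 in heated bam1 and at 11.62 and 11.18 in bam1 controls. In Col-0 it was at 8.90 and 8.76 under heat and at 10.49 and 11.60 under control conditions. The heat arrays of each genotype lay close together while the Col-0 controls were apart, and no heat array reached a control array. This amounted to a log2 change of -1.91 ± 0.36 in bam1 (3.76-fold lower, adjusted p = 0.0083) and -2.22 ± 0.36 in Col-0 (4.65-fold lower, adjusted p = 0.0051). Both calls were kept without any single array, and the methods' t-test did not call the change in Col-0.

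EXLA2 (AT4G38400), whose loss in Arabidopsis alters resistance to a necrotrophic fungus, was at 4.04 and 5.05 in heated bam1 and at 7.93 and 7.52 in bam1 controls. In Col-0 it was at 4.57 and 3.94 under heat and at 6.43 and 7.64 under control conditions. Replicate 2 of both heat groups was not well above background, so that 1 of 2 heat arrays in each genotype measured the transcript and the size of the change is uncertain. EXLA2 entered the test through the control groups, where it was high, and a filter on all 8 arrays left it out. The fitted log2 change was -3.18 ± 0.50 in bam1 (adjusted p = 0.00443) and -2.78 ± 0.50 in Col-0 (adjusted p = 0.00738). Both calls were kept without any single array, but the size depended on the background correction. With normexp the log2 change was -1.17 in bam1, still called, and -0.89 in Col-0, under the 2-fold limit. The methods' t-test did not call EXLA2 in Col-0 either.

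EXLA3 (AT3G45960), which neighbours EXLA1 on chromosome 3 with 0 annotated genes between them, was not called. Its level was 3.95 and 5.23 in heated bam1 and 6.12 and 6.03 in bam1 controls, and 8.74 and 4.22 in heated Col-0 and 5.26 and 6.37 in Col-0 controls. Col-0 heat replicate 1 stood far above the other 7 arrays on this probe, and Col-0 heat replicate 2 was not well above background. The log2 change was -1.48 ± 1.35 in bam1 (adjusted p = 0.428) and 0.66 ± 1.35 in Col-0 (adjusted p = 0.736). A second EXLA3 probe was well above background on 4 of 8 arrays, and on neither Col-0 heat array, and was not called. Without Col-0 heat replicate 2 the first probe was called higher in Col-0.

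EXLB1 (AT4G17030), the single expansin-like B gene of Arabidopsis, moved in the opposite direction. It was at 13.36 and 13.64 in heated bam1 and at 12.38 and 12.55 in bam1 controls. In Col-0 the levels were 13.37 and 13.49 under heat and 11.66 and 12.60 under control conditions. The 4 heat arrays lay close together and above every control array. The log2 change was 1.03 ± 0.31 in bam1 (2.05-fold higher, adjusted p = 0.0387) and 1.3 ± 0.31 in Col-0 (2.46-fold higher, adjusted p = 0.0185). In bam1 the call was lost without any of 6 arrays, that is all but the 2 Col-0 control replicates, with log2 changes between 0.89 and 1.18 and adjusted p between 0.0661 and 0.161. It was also lost with 75th-percentile scaling (0.77, adjusted p = 0.0922), the authors' table, no filter on dim probes and the mean of both probes. In Col-0 it was lost without Col-0 heat replicate 1, Col-0 heat replicate 2 or Col-0 control replicate 1, where the log2 change lay between 0.83 and 1.36, in a fit of the Col-0 arrays alone (adjusted p = 0.052) and by the methods' t-test.

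For 9 of the 20 loci more than 1 probe was tested, 30 probes in all. The second EXLA1 probe was called lower in bam1 (-2.29, adjusted p = 0.0042) and in Col-0 (-2.04, adjusted p = 0.0064). One further EXPA8 probe was called lower in both genotypes, with -1.46 in bam1 and -1.21 in Col-0. Another was not well above background on either bam1 heat array and was at least 1.70-fold lower there under heat (adjusted p = 0.0197). The second EXLB1 probe was called higher in Col-0 (1.11, adjusted p = 0.0403) and missed the threshold in bam1 (0.79, adjusted p = 0.105). The second probes of EXPA3, EXPA5 and EXPA16 pointed down in both genotypes without passing the test, with log2 changes between -0.95 and -0.48 in bam1 and between -1.56 and -0.82 in Col-0. The second probes of EXPA10, EXPA20 and EXLA3 were not called in either genotype.

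The remaining 13 loci with a probe were not well above background in any group and were not tested. They were EXPA2, EXPA7, EXPA12, EXPA17, EXPA18, EXPA21 to EXPA26, EXPB2 and EXPB4. In Arabidopsis EXPA7 and EXPA18 are root hair genes, EXPA17 acts in lateral root emergence and EXPA2 in seed germination. EXPA21 to EXPA26 form a cluster on chromosome 5 with 0 annotated genes between neighbours. Their levels lay between 1.89 and 4.72 with 1 exception, EXPA7 (AT1G12560), which read 7.01 on bam1 heat replicate 1 and between 1.90 and 3.43 on the other arrays. The lowest probe well above background read between 3.73 and 4.98, depending on the array, so transcripts below this level were not detectable.

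The comparison of genotypes asked whether loss of BAM1 alters expansin transcripts or their heat response. None of the 20 loci was called in bam1 against Col-0 under heat (background 0%), under control conditions (0.00541%), or over both conditions (0.0108%). The difference of the heat responses was called for none of the 20 loci either (0.00541%). BAM1 itself was not called under heat (log2 difference -4.72) or under control conditions (-4.66), and was called lower over both (-4.69). The absence of expansin calls within a condition therefore does not show that expansin levels were alike. At an unadjusted p under 0.05 from limma there was 1 expansin locus under heat, 0 under control conditions, 1 over both conditions and 0 for the difference of the responses. Over all loci the share at that p was 3.11% under heat, 3.98% under control conditions, 4.39% over both conditions and 2.65% for the difference of the responses, so 1 of 20 loci is close to what all loci gave. The t-test of the study's methods called 0 in the comparisons it was run for. The median log2 difference between bam1 and Col-0 was 0.18 under heat, -0.04 under control conditions and 0.10 over both, and the heat responses differed by a median of 0.26, against medians over all loci between -0.02 and 0.02. For 5 heat shock protein genes read as a check of the treatment, the median was 2.38 under heat and 2.12 for the difference of the responses. None was called, and 4 and 5 of the 5 had an unadjusted p under 0.05 from limma. The part of this in the expansin comparisons was not tested.

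The locus with an unadjusted p under 0.05 was EXPA15 (AT2G03090), at 8.76 and 8.70 in heated bam1 and at 8.06 and 8.31 in heated Col-0, and at 8.83 and 8.96 in bam1 controls and at 8.54 and 8.77 in Col-0 controls. Each bam1 array was above the Col-0 array of the same slide and condition. The difference was 0.55 (95% limits 0.15 and 0.95) under heat and 0.39 (0.11 and 0.67) over both conditions, with an adjusted p of 0.914 over both, the lowest of the family in any genotype comparison. For the loci that fell most with heat, the limits of the difference in heat response were -0.87 and 0.54 for EXPA11, -0.92 and 1.53 for EXLA1 and -2.10 and 1.31 for EXLA2. A difference of 2-fold was thus outside the limits for EXPA11 and inside them for EXLA1 and EXLA2. For EXPA5 the limits were -0.62 and 0.75, for EXPB1 -0.12 and 1.17, and for EXLB1 -1.30 and 0.77.

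**Figure D3:**
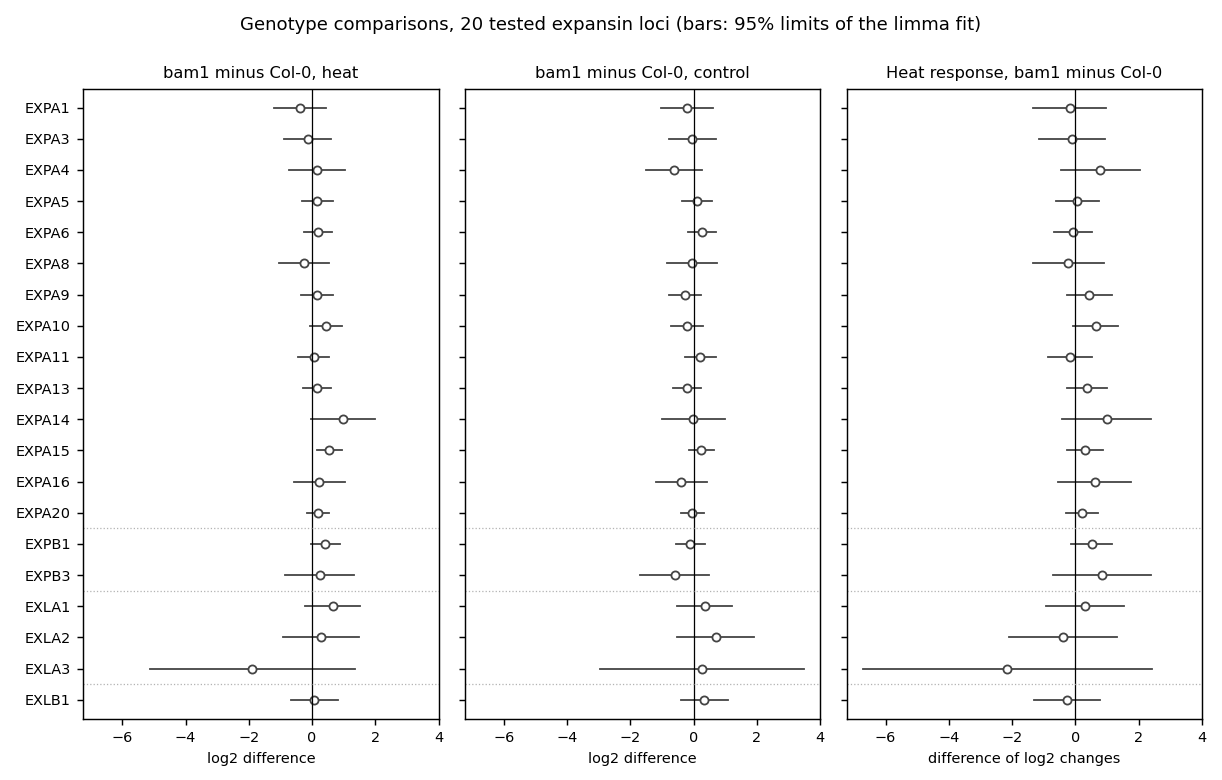
Log2 difference between bam1 and Col-0 under heat (left), under control conditions (middle) and in the heat response (right) for the 20 tested expansin loci, with 95% limits of the limma fit on 8 arrays. All points are open because no locus was called, and the limits of EXLA3 are the widest in each panel.

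Genes that act with expansins in acid growth were examined as lists, and their counts are to be read against the shares of all loci given above, 11.5% lower and 11.5% higher in bam1 and 10.6% lower and 11.7% higher in Col-0. Plasma membrane proton pumps (AHA) acidify the wall, and of 10 tested loci 1 was called higher and 1 lower under heat in bam1, and 2 were called higher in Col-0, with a median log2 change of 0.04 in bam1, which was -0.13 under 75th-percentile scaling, and of -0.07 in Col-0. The bam1 counts are near the background in both directions, and with normexp 0 of the 10 pumps were called in either genotype. AHA7 (AT3G60330) was at 6.43 and 6.55 in heated bam1 against 4.57 and 4.54 in bam1 controls, and at 6.08 and 6.32 in heated Col-0 against 4.89 and 4.90 in Col-0 controls. It was called higher in bam1 (1.94, adjusted p = 0.000461) and in Col-0 (1.31, adjusted p = 0.00167). AHA2 (AT4G30190), a main pump of Arabidopsis, was called lower in bam1 (-1.19, adjusted p = 0.00387) and stayed under 2-fold in Col-0 (-0.93, adjusted p = 0.00962). AHA9 (AT1G80660) was not well above background in Col-0 controls and was at least 3.06-fold higher in heated Col-0 (adjusted p = 0.0161). For such bounds, the floor on each array of the dimmer group was the weakest signal still well above background there, or the signal of the probe itself where that was stronger.

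SAUR proteins activate the pumps by inhibiting D-clade protein phosphatases 2C, which hold the pumps inactive. Of 12 tested SAUR loci 4 were called lower in bam1 (median log2 change -0.62) and 0 in Col-0 (median -0.52) by limma. At an unadjusted p under 0.05 from limma there were 5 of 12 in bam1 and 2 of 12 in Col-0. Both lie below the shares of all loci at that p, 48.8% in bam1 and 48.7% in Col-0. With normexp 2 were called lower in bam1, and the methods' t-test called 0 in either genotype. The difference of the responses was called for 0 of the 12, and 0 had an unadjusted p under 0.05 there. Against Col-0, all 12 were lower in bam1 under heat (median log2 difference -0.82), under control conditions (-0.37) and over both (-0.60), with 0 called. At an unadjusted p under 0.05 from limma there were 5 under heat, 0 under control conditions and 4 over both. The shares of all loci there were 3.11%, 3.98% and 4.39%. AT1G29510 was at 8.35 and 9.05 in heated bam1 against 10.13 and 10.07 in bam1 controls (log2 change -1.40, adjusted p = 0.00772), and changed by -0.63 in Col-0 (adjusted p = 0.102). Of 9 phosphatase loci 1 was called lower in bam1, near the background, and 2 in Col-0. AT5G02760 was lower in both, with log2 changes of -1.84 in bam1 (adjusted p = 0.000986) and -1.58 in Col-0 (adjusted p = 0.00172). Among 14 growth regulators, HBI1 (AT2G18300), a transcription factor that promotes cell elongation, was at 10.18 and 10.27 in heated bam1 against 12.01 and 11.56 in bam1 controls, and at 10.21 and 9.98 in heated Col-0 against 11.56 and 11.73 in Col-0 controls. Its log2 change was -1.56 in bam1 (adjusted p = 0.00208) and -1.55 in Col-0 (adjusted p = 0.00221), whereas PIF3 (AT1G09530), a phytochrome-interacting factor, was called higher in both (log2 change 1.34 in bam1, 1.18 in Col-0). The other 12 regulators were not called in either genotype, so that the counts of 1 lower and 1 higher of 14 lie below the background, and with 75th-percentile scaling 2 were called lower in each genotype.

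Among other wall genes, xyloglucan endotransglucosylases were called in both directions and pectin genes lower only. Of 22 tested xyloglucan endotransglucosylase/hydrolase loci (XTH), whose products cut and rejoin the hemicellulose that tethers cellulose, 7 were called lower and 3 higher in bam1 (median log2 change -1.06), and 5 lower and 1 higher in Col-0 (median -0.76). The 1 higher call in Col-0 lies below the 11.7% of all loci. With 75th-percentile scaling 7 were called lower in Col-0. With normexp 4 were called lower and 2 higher in Col-0, and 6 lower and 2 higher in bam1. TCH4, also called XTH22 (AT5G57560), had a log2 change of -2.27 in bam1 and -3.44 in Col-0. For XTH8 (AT1G11545) it was -2.67 in bam1 and -2.36 in Col-0. XTH11 (AT3G48580), not well above background on any control array, was at least 20.2-fold higher in heated bam1 and at least 29.7-fold higher in heated Col-0. Of 4 tested pectin genes with a described role in guard cells, 2 were called lower in bam1 (1 with 75th-percentile scaling or normexp) and 1 in Col-0, and AT1G23200 was lower in both (-2.71 in bam1, -3.00 in Col-0).

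**Figure D4:**
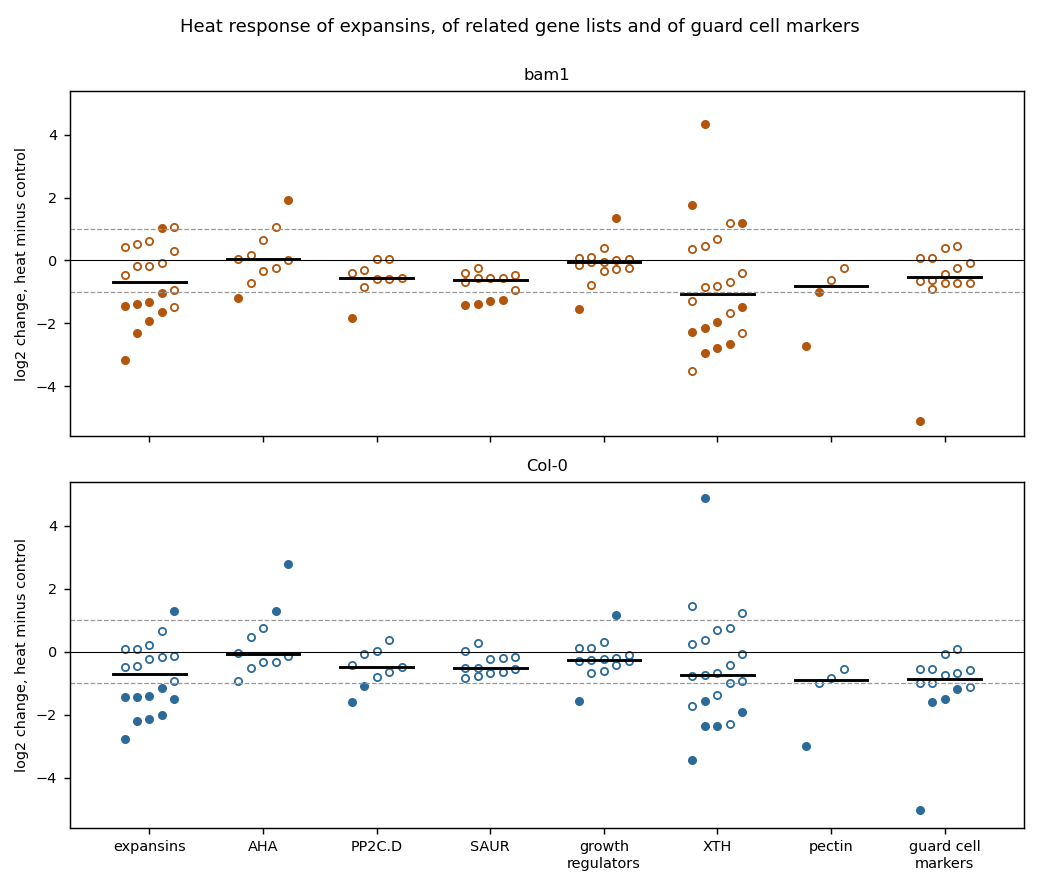
Log2 change (heat minus control) of each tested gene in bam1 (top) and Col-0 (bottom) for the expansins, for lists of pumps, phosphatases, SAUR genes, growth regulators, XTH and pectin genes, and for guard cell markers. Filled points passed the call, bars are medians, dashed lines mark 2-fold, and the expansin medians lie at -0.69 in bam1 and -0.70 in Col-0, with XTH11 drawn at its fitted change.

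Markers of the cell types in the leaf were read on the same arrays, and in bulk RNA fewer cells of a type and less RNA per cell cannot be told apart. Each of the 14 guard cell markers was detected on all 8 arrays, so that none was at 0. Their summed level in log2 was 15.60 to 15.70 in heated bam1 against 16.18 to 16.56 in bam1 controls, and 15.78 to 15.95 in heated Col-0 against 16.82 to 16.88 in Col-0 controls. Between the control groups, bam1 minus Col-0 had a median log2 difference of -0.70, with 0 called. At an unadjusted p under 0.05 from limma there were 7 of 14, against 3.98% of all loci. Between the heated groups the median was -0.24, with 1 of 14 at that p, against 3.11% of all loci. The part of this in the genotype comparisons of the expansins was not tested. Under heat, 1 of the 14 was called lower in bam1 (median log2 change -0.53), where 11.5% of all loci were, so that this count is near the background. In Col-0 4 of the 14 were called lower (median -0.86), where 10.6% of all loci were. The expansin medians beside these were -0.69 in bam1 and -0.70 in Col-0. With 75th-percentile scaling, 3 of the 14 guard cell markers were called lower in bam1 and 7 in Col-0, and likewise in the authors' table. AT1G22690, a guard cell gene, had the largest change among them, with -5.10 in bam1 and -5.04 in Col-0, while KAT1, an inward potassium channel of guard cells, changed by -0.91 in bam1 and -1.58 in Col-0. The 9 mesophyll markers, all detected, summed to 19.93 to 20.04 in heated bam1 against 20.17 to 20.24 in bam1 controls, and to 20.04 in both heated Col-0 arrays against 20.21 to 20.34 in Col-0 controls, with 2 of 9 called lower in each genotype. Of the 10 vasculature markers, 2 were called lower and 2 higher in bam1, and 2 lower and 3 higher in Col-0. Their sums overlapped between heat and control in both genotypes (16.60 to 16.84 under heat against 16.61 to 16.74 under control conditions in bam1, 16.78 to 16.93 under heat against 16.63 to 17.02 under control conditions in Col-0). Of the 7 markers of pavement and other epidermis, 0 were called in bam1 and 2 were called lower in Col-0. They summed to 16.72 to 16.88 in heated bam1 against 16.20 to 16.29 in bam1 controls, and overlapped in Col-0 (16.07 to 16.97 under heat against 16.35 to 16.61 under control conditions). The size of these shifts depended on the scaling. Heat minus control of the summed level was -0.73 in bam1 and -0.98 in Col-0 for guard cell markers, against -1.14 and -1.50 with arrays scaled to their 75th percentile. For mesophyll markers it was -0.22 in bam1 and -0.24 in Col-0, against -0.99 and -0.96 with that scaling, and for vasculature markers 0.04 in bam1 and 0.03 in Col-0, against -0.41 and -0.43. For markers of pavement and other epidermis it was 0.56 in bam1 and 0.04 in Col-0, against -0.02 and -0.46. The part of these shifts in the expansin changes was not tested.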

How the data were processed

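Guard cell RNA of 8 samples was labelled with Cy3 and hybridized to Agilent arrays by the authors. The deposited scanner files, from Feature Extraction 11.5.1.1, hold per spot an intensity after background subtraction, and the authors' series table holds log2 values, of which 99.7% lay within 0.05 of values scaled to the 75th percentile and centred per probe. Here, control spots and spots with outlier marks (9 to 64 per array) were left out, and 3 saturated spots were kept. Of 43603 probes, 34348 had a locus through the RefSeq accession, named with assembly TAIR10.1. Log2 intensities were quantile-normalized, and the 29617 probes detected by both replicates of 1 group or more entered the limma fit (version 3.58.1, R 4.3.3), with a mean per group, 4 residual degrees of freedom and p-values adjusted over all of them. A locus is represented by its probe with the highest mean. The code of the fit was run on simulated data with independent noise on each array. Such data lack the correlation between same-numbered arrays given below, so that run does not bear on the p-values here. The number of arrays limits the precision, p-values measure the spread between pooled replicates, and 95% limits come from the same fit.

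Values on every array are given for loci called in any of the 6 comparisons and for the 5 with the highest mean signal, and up to 3 called genes of each other list are named. EXPA7, EXPA10, EXPA15, EXPB3, EXLA3 and KAT1 are outside this rule, and naming them was decided with their values known. Members and lists were chosen with earlier results of these data known. Replicate numbers follow the slide given in the file headers, and deviations from group means correlated between same-numbered arrays with r = 0.28 to 0.63 over 6 pairs of groups (29455 probes), so the number was used as a replicate block in an alternative fit. Other alternatives were 75th-percentile scaling, normexp background correction, the authors' table, other detection filters, other fits and tests, the mean of a locus's probes and leaving out each array.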

Additional observations from a re-analysis of the deposited data

How the results depend on the processing

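In bam1, 9 expansin loci were called under heat, and the count was 4 to 9 when any 1 array was left out, with 4 without bam1 heat replicate 2. In Col-0, 10 were called, with 6 to 10 when any 1 array was left out and 6 without Col-0 heat replicate 1. The methods' t-test at its own limits called 8 in bam1 and 4 in Col-0, and after Benjamini-Hochberg adjustment 0 in both. This test pools the spread of each probe over the 2 groups compared alone, with 2 arrays in each. The other settings gave 6 to 10 in bam1 and 7 to 10 in Col-0, the replicate block 10 in each, and the block changed no call besides EXPB3. In the 4 genotype comparisons, 0 loci were called under every setting run. A fit with only the groups compared was not run for both conditions together or for the difference of responses, nor was the t-test for the difference of responses. Of 378 alternative values for the 19 heat changes called among the loci described in full, 83 (22.0%) lost the call, 37 of them without 1 array and 46 under other settings, and 0 reversed. The cause of the lost calls was not tested. Several settings keep the log2 change of the main fit, so a reversal was not possible there. For EXPA1 in Col-0 it stayed at -1.16 without the filter on dim probes, with only the groups compared, and in the t-test before and after adjustment. The authors' table nearly repeats the percentile scaling. The 378 values are therefore not independent, and neither the 22.0% nor the 0 reversed measures how robust the calls are. EXLA2 and EXLA3 lie near background, which limits the size of their changes.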
